A study of Drosophila melanogaster with 10 samples.

Results

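The 30 genes described here cover 7 proteins that make, package or recapture monoamine transmitters and 23 G protein-coupled receptors for dopamine, serotonin, octopamine, tyramine, acetylcholine, GABA, glutamate and adenosine. They were taken by name from 17895 gene entries, and 29 of them were among the 10749 genes with enough counts to test. The levels are from bulk RNA-seq of whole Drosophila melanogaster brains dissected from larvae of the 3rd instar. There were 4 libraries labelled vostok, a mutant of CG11504 whose allele the labels do not describe, and 4 control libraries whose names start with yw. The comparison asked how transcript levels differed between mutant and control brain. The labels do not say whether the repeats of a group were separate pools of animals, so the p-values take their error from differences between libraries that may be technical repeats.

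Monoamines are made from the amino acids tyrosine and tryptophan, loaded into synaptic vesicles by a vesicular transporter, released, and taken back up by transporters of the plasma membrane. Their receptors, like the muscarinic, GABA-B, metabotropic glutamate and adenosine receptors, do not open a channel themselves but act through heterotrimeric G proteins, many of them by raising or lowering cAMP or by activating phospholipase C. In the larval brain small sets of neurons make dopamine, serotonin, octopamine or tyramine and project widely, and the receptors act in locomotion, feeding, learning and arousal.

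The libraries held 57613848 to 81796126 estimated counts, and levels are given as CPM, counts brought to a common library size, after TMM scaling, a correction for differences in library composition. A gene is called where its p-value, adjusted over all tested genes by the Benjamini-Hochberg method in the quasi-likelihood test of edgeR, was below 0.05. CG11504 was not lower in the mutant: it averaged 73.6 ± 1.93 CPM in vostok libraries and 60.1 ± 4.99 CPM in control libraries (SD, n = 4 each; log2 fold change 0.29 ± 0.06, SE, edgeR adjusted p = 0.0143, and 0.0531 without vostok replicate 3). RNA of the pigmentation gene y averaged 123 ± 19.6 CPM in vostok libraries and 0.846 ± 0.136 CPM in control libraries (log2 fold change 7.18 ± 0.18), so the strains differed at a marker gene besides CG11504, and the vostok genotype and the strain background cannot be told apart. The control libraries also differed among themselves in pan-neuronal RNA. The 14 neuron markers, such as elav, nSyb, Syt1 and brp, summed to 7536 to 8629 CPM in vostok libraries and to 3787, 8423, 4487 and 6749 CPM in control replicates 1 to 4. None of these 14 was called by edgeR (28.3% of all tested genes), DESeq2 called 1 (34.4%) and limma voom 0 (26.5%). Of the 14, 1 had an unadjusted p below 0.05 (45.2% of all tested genes), and all 14 had a log2 fold change above 0 (48.8%). Without control replicate 2 edgeR called 9 of the 14 higher, where it called 23% of all tested genes higher. The 10 hemocyte markers, genes of the blood cells, ran from 244 to 926 CPM in vostok libraries and were at 2065, 359, 6182 and 1837 CPM in control replicates 1 to 4. All 10 had a log2 fold change below 0 and 1, vkg, a chain of collagen IV, was called lower (16.2% of all tested genes). DESeq2 called 8 lower, where it called 34.4% of all genes in either direction, 17.1% higher and the rest lower. Without control replicate 2 edgeR called 9 of the 10 lower, where it called 25.6% of all tested genes lower. Without any other 1 library it called 0 of the 10. The 10 neural progenitor markers, at 978 to 1132 CPM in vostok libraries and 989 to 1101 CPM in control libraries, did not show this split of the controls. In RNA from whole brains, fewer cells of a type and less RNA per cell cannot be told apart.

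**Figure D1:**
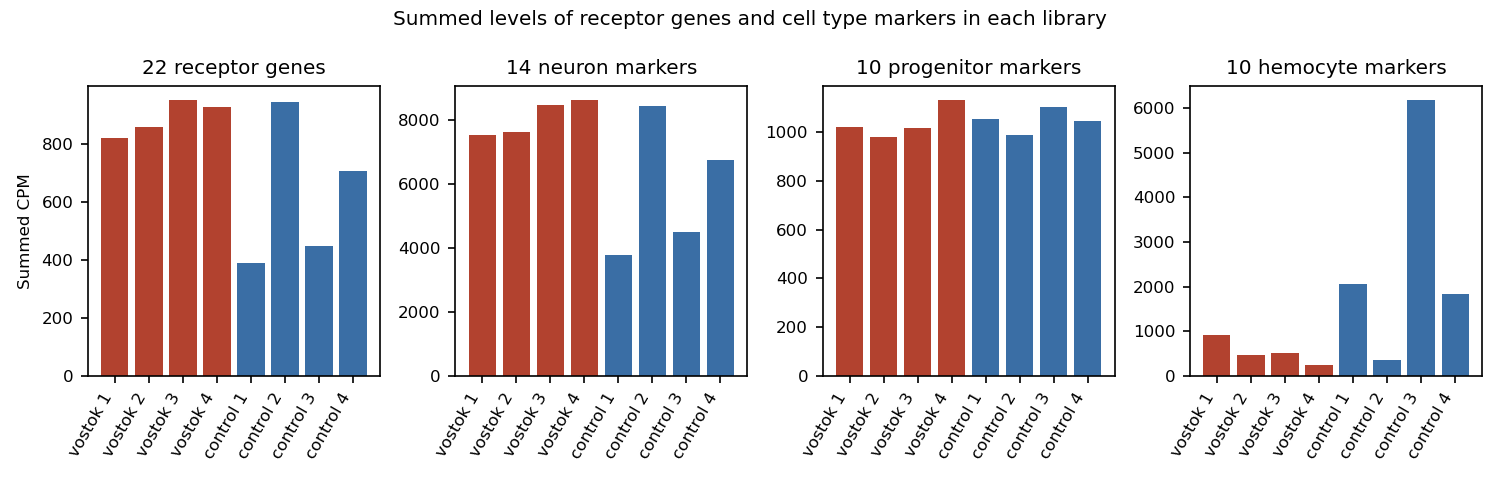
Summed levels, in CPM after TMM scaling, of the 22 tested receptors, 14 neuron markers, 10 neural progenitor markers and 10 hemocyte markers, with 1 bar for each library, vostok left of control. Control replicate 2 reached 945 CPM for the receptors and 8423 CPM for the neuron markers, within the vostok ranges, while control replicates 1 and 3 were lowest for both and highest for the hemocyte markers.

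Of the 29 tested genes 1 was called higher in vostok libraries, the dopamine transporter DAT, and none was called lower, where 28.3% of all tested genes were called, 12.1% higher and 16.2% lower. No gene of the 29 was lower with DESeq2 or limma voom, nor lower at an unadjusted p below 0.05, while 11 were higher at that unadjusted level, against 20.1% of all tested genes (45.2% in either direction). The direction was nearly uniform: 27 of 29 had a log2 fold change above 0 (48.8% of all tested genes), with a median of 0.62 against -0.01 over all tested genes. In 7 of them, DAT, SerT, 5-HT2A, 5-HT2B, Oamb, Octbeta3R and TyrR, the 4 vostok levels all lay above the 4 control levels, which held for 16.4% of all tested genes. None had all vostok levels below all control levels (16.8% of all tested genes). Of the 30 genes 16 overlap another annotated gene, and since the use of strand in counting is not given, their levels are uncertain to that extent. They are Ddc, Tdc2, Tbh, Vmat, Dop2R, DopEcR, 5-HT1A, 5-HT1B, 5-HT2B, 5-HT7, Octbeta2R, Octbeta3R, mAChR-A, mAChR-C, GABA-B-R1 and AdoR.

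The counts turned on control replicate 2. Its level was a median of 1.80 times the mean of the other controls over the 29 genes, against 0.977 times over all genes. It lay above every vostok library in 8 of the 29, as it did in 3154 of all 10749 tested genes. It was also the control with the lowest hemocyte markers, whose part in these counts was not tested. Leaving it out, edgeR called 26 of the 29 genes higher, where 23% of all tested genes were called higher and the median log2 fold change of the 29 was 0.92. Only ple, Ddc and AdoR were not called in that fit. Without control replicates 1 and 3 together, an alternative chosen after the data were seen, DAT alone of the 29 was called. Their median was 0.20, with 25 of 29 still above 0. In that fit 14.2% of all tested genes were called, 7.94% higher, and the median of all tested genes was -0.003.

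**Figure D2:**
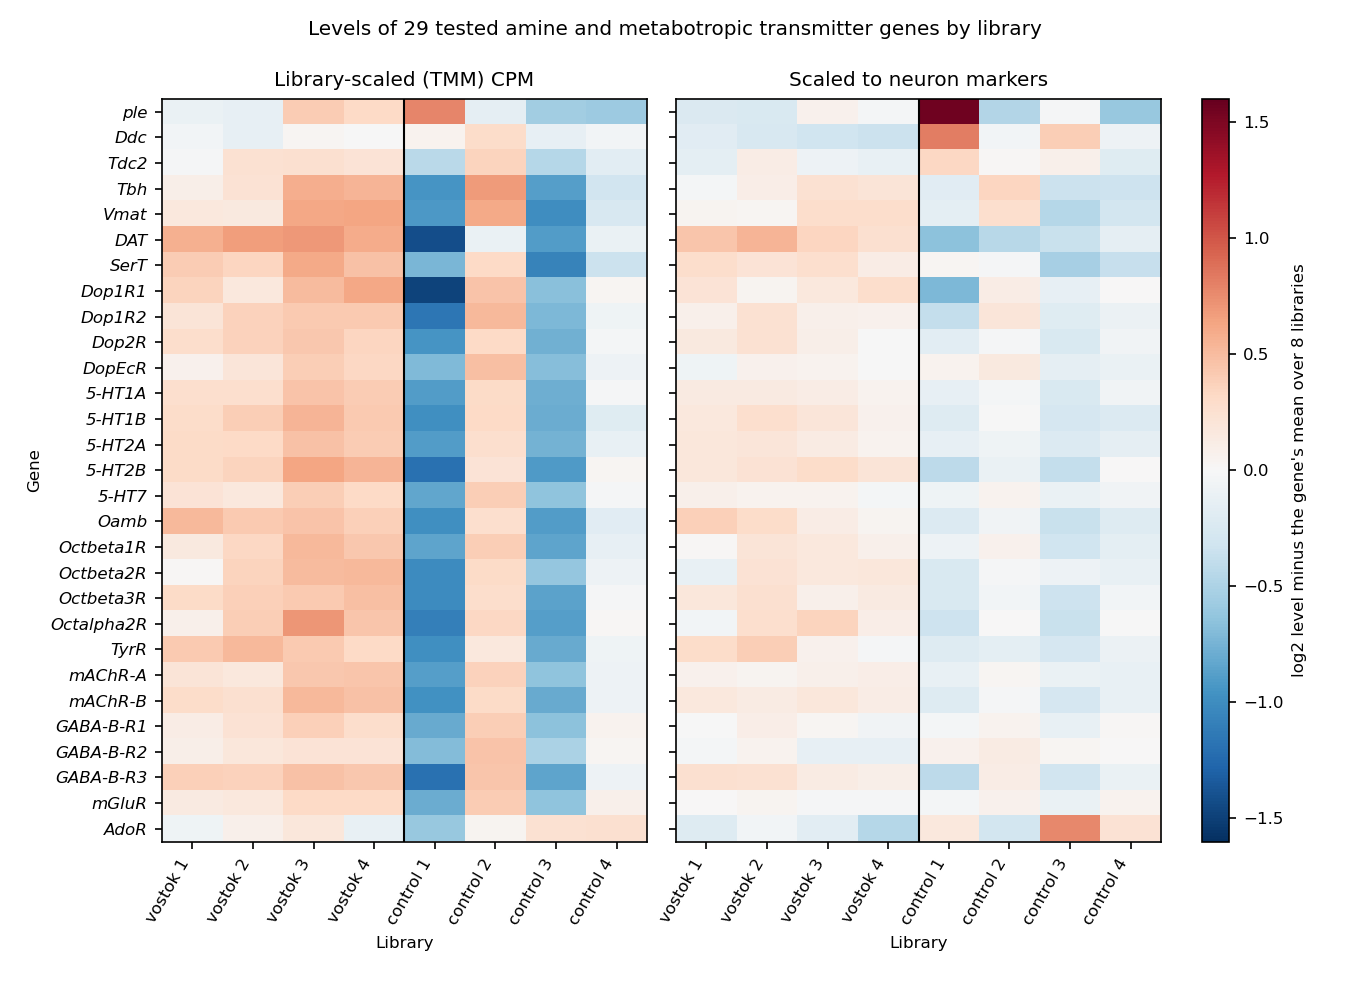
Levels of the 29 tested genes in the 8 libraries, as log2 CPM minus the mean of the gene, from 1.6 below to 1.6 above it, after TMM scaling (left) and after scaling to the neuron markers (right). Rows are grouped by role, and vostok libraries stand left of control libraries. After TMM scaling control replicates 1 and 3 were low across nearly all rows and control replicate 2 was like the vostok libraries. After scaling to neuron markers the control SD was smaller in 26 of the 29 rows, the exceptions being ple, Ddc and AdoR, and the groups still did not overlap for DAT.

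DAT, which takes dopamine back into the neuron, was the called gene. It had 10.93, 11.72, 11.86 and 11.12 CPM in vostok replicates 1 to 4, against 2.75, 6.84, 3.97 and 6.83 CPM in control replicates 1 to 4. The vostok libraries were nearly equal, the controls fell into a low pair and a higher pair, and the groups did not overlap. The means were 11.4 ± 0.452 CPM in vostok libraries and 5.10 ± 2.07 CPM in control libraries (SD, n = 4 each), which is 2.24-fold (log2 fold change 1.16 ± 0.28, SE, edgeR adjusted p = 0.0219). The call was lost without vostok replicate 2 (edgeR adjusted p = 0.0599), without vostok replicate 3 (0.0600), without vostok replicate 4 (0.0511) and without control replicate 3 (0.0605), while the log2 fold change stayed between 0.95 and 1.34 in all 8 fits that left out 1 library. It was 0.74 without control replicates 1 and 3 together (edgeR adjusted p = 0.00293). In the Release 6 assembly DAT lies on chromosome 2R from 16558567 to 16565238 and overlaps no other annotated gene.

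SerT, the serotonin transporter, had 11.51, 10.94, 13.21 and 11.97 CPM in vostok replicates 1 to 4, against 5.22, 10.76, 4.13 and 6.83 CPM in control replicates 1 to 4. Every vostok library was above every control, by a margin of 10.94 against 10.76 CPM at the closest. The log2 fold change was 0.82 ± 0.27 (SE), short of the threshold (edgeR adjusted p = 0.0569), and it passed with DESeq2 (adjusted p = 0.0141) and without control replicate 2 (edgeR adjusted p = 0.00267). Vmat, the vesicular transporter shared by all monoamine neurons, had 140.92, 139.63, 192.38 and 193.80 CPM in vostok replicates 1 to 4, against 66.05, 190.03, 62.91 and 104.82 CPM in control replicates 1 to 4. Control replicate 2 was nearly as high as the top pair of vostok libraries, so the groups overlapped (log2 fold change 0.65 ± 0.35, edgeR adjusted p = 0.180).

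The 4 enzymes of amine synthesis had a median log2 fold change of 0.23, and none was called (28.3% of all tested genes). Ddc, the aromatic amino acid decarboxylase that makes both dopamine and serotonin, had 39.77, 37.38, 41.83 and 40.89 CPM in vostok replicates 1 to 4, against 42.61, 50.33, 37.33 and 39.67 CPM in control replicates 1 to 4. The groups overlapped and the log2 fold change was -0.09 ± 0.09 (edgeR adjusted p = 0.474). Ddc had a control coefficient of variation of 13.3%, the smallest of the 29, where DAT had 40.5% and Vmat 55.9%. Tyrosine hydroxylase, encoded by ple and rate-limiting for dopamine, ran from 3.80 to 5.50 CPM in vostok libraries and from 2.77 to 7.15 CPM in control libraries (log2 fold change 0.15 ± 0.33, edgeR adjusted p = 0.733), and its highest library was control replicate 1, which was the lowest of the 8 for 23 of the 29 genes. Tdc2, the neuronal tyrosine decarboxylase that makes tyramine, ran from 5.21 to 6.36 CPM in vostok libraries and from 3.86 to 6.77 CPM in control libraries (log2 fold change 0.32 ± 0.20, edgeR adjusted p = 0.230). Tbh, which turns tyramine into octopamine, ran from 24.05 to 33.69 CPM in vostok libraries and from 11.65 to 35.92 CPM in control libraries (log2 fold change 0.58 ± 0.36, edgeR adjusted p = 0.228).

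**Figure D3:**
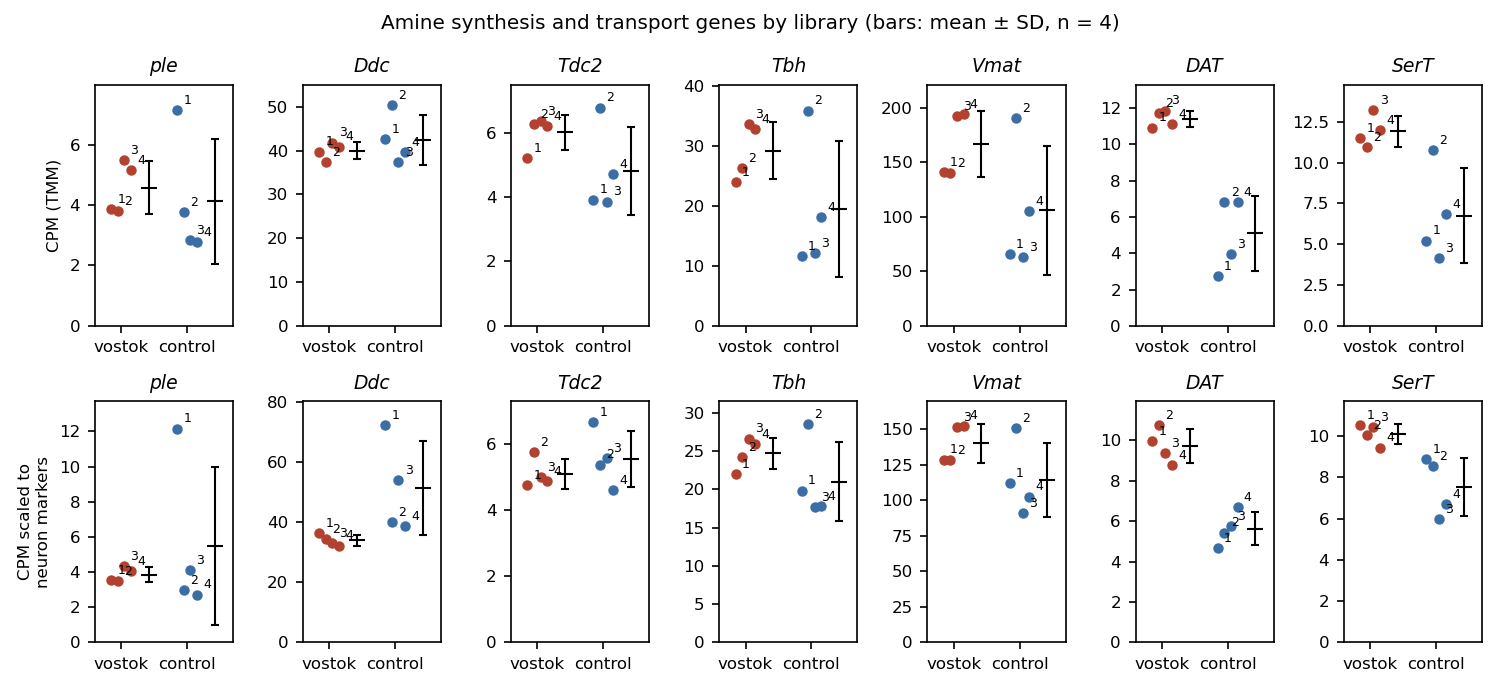
Levels of ple, Ddc, Tdc2, Tbh, Vmat, DAT and SerT in each library, vostok left of control, in CPM after TMM scaling (top) and after scaling to the neuron markers (bottom), with bars for the mean ± SD (n = 4 each). The 4 vostok libraries lay above the 4 controls for DAT and SerT under both scalings, and below them for Ddc after scaling to the neuron markers.

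None of the 22 tested receptors was called by edgeR, where 28.3% of all tested genes were called, 12.1% higher. At an unadjusted p below 0.05 there were 9, all higher in vostok libraries, DESeq2 called 7, limma voom 3, limma voom with quality weights 13, and edgeR without control replicate 2 called 21 of 22, all higher. Of all tested genes 20.1% were higher at that unadjusted level. The shares called higher by DESeq2, limma voom, limma voom with quality weights and edgeR without control replicate 2 were 17.1%, 13%, 18.3% and 23%. Their summed level was 820, 857, 951 and 926 CPM in vostok replicates 1 to 4, against 389, 945, 447 and 705 CPM in control replicates 1 to 4. Control replicate 2 lay inside the vostok range and the other controls below it.

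The 4 dopamine receptors had a median log2 fold change of 0.60. DopEcR, a receptor for both dopamine and the steroid ecdysone, had 67.09, 73.10, 84.51 and 80.99 CPM in vostok replicates 1 to 4, against 39.21, 89.91, 40.02 and 60.82 CPM in control replicates 1 to 4. Control replicate 2 was the highest of all 8 libraries (log2 fold change 0.41 ± 0.26, edgeR adjusted p = 0.245). The cAMP-raising receptor Dop1R1 ran from 36.87 to 50.56 CPM in vostok libraries and from 11.77 to 45.07 CPM in control libraries. Dop1R2, which acts in learning and forgetting in the adult mushroom body, ran from 29.80 to 34.55 CPM in vostok libraries and from 11.61 to 37.05 CPM in control libraries. Dop2R, the cAMP-lowering receptor that also serves as an autoreceptor, came closest to separate groups, with 32.81 to 36.44 CPM in vostok libraries and 14.05 to 33.48 CPM in control libraries (log2 fold change 0.62 ± 0.26, edgeR adjusted p = 0.105). Of the 4, 1 was higher at an unadjusted p below 0.05 (20.1% of all tested genes), and DESeq2 called none (17.1% of all tested genes were called higher).

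The 5 serotonin receptors had a median log2 fold change of 0.67, and 4 of them were higher at an unadjusted p below 0.05 (20.1% of all tested genes). 5-HT2A, of the class that acts through phospholipase C, had 4.51, 4.54, 5.04 and 4.83 CPM in vostok replicates 1 to 4, against 1.96, 4.39, 2.16 and 3.36 CPM in control replicates 1 to 4. The groups did not overlap, but the highest control, replicate 2, was close to the lowest vostok library (log2 fold change 0.67 ± 0.26, edgeR adjusted p = 0.0822). 5-HT2B, its paralog, had 9.23, 9.58, 11.59 and 10.90 CPM in vostok replicates 1 to 4, against 3.27, 8.70, 3.97 and 7.66 CPM in control replicates 1 to 4. Here too the groups did not overlap (log2 fold change 0.81 ± 0.31, edgeR adjusted p = 0.0840). DESeq2 called both 5-HT2A (DESeq2 adjusted p = 0.0360) and 5-HT2B (DESeq2 adjusted p = 0.0327) higher, and limma voom called neither. The 5-HT2B locus overlaps an annotated long noncoding RNA, lncRNA:CR46124, while 5-HT2A overlaps no annotated gene.

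5-HT1A, a cAMP-lowering receptor, had 43.99, 44.04, 49.96 and 48.10 CPM in vostok replicates 1 to 4, against 19.61, 44.91, 21.17 and 35.94 CPM in control replicates 1 to 4. Control replicate 2 was above the lower pair of vostok libraries (log2 fold change 0.61 ± 0.26, edgeR adjusted p = 0.105). 5-HT1B, which lies beside 5-HT1A on chromosome 2R and also lowers cAMP, ran from 17.24 to 20.45 CPM in vostok libraries and from 7.13 to 17.55 CPM in control libraries (log2 fold change 0.73 ± 0.27, edgeR adjusted p = 0.0732). DESeq2 and limma voom both called it higher. 5-HT7, the cAMP-raising serotonin receptor, ran from 16.62 to 19.42 CPM in vostok libraries and from 8.28 to 19.29 CPM in control libraries (log2 fold change 0.47 ± 0.25, edgeR adjusted p = 0.176).

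The 6 octopamine and tyramine receptors had the highest median log2 fold change among the receptor groups, 0.70. In 3 of them the groups did not overlap, with vostok higher (16.4% of all tested genes). Oamb, the calcium-mobilizing octopamine receptor, had 28.71, 26.86, 27.62 and 26.29 CPM in vostok replicates 1 to 4, against 10.20, 24.33, 10.86 and 17.80 CPM in control replicates 1 to 4. The vostok libraries varied by 3.83% (coefficient of variation) and the controls by 42.1% (log2 fold change 0.79 ± 0.27, edgeR adjusted p = 0.0581). TyrR, a receptor for tyramine, had 12.14, 12.93, 12.09 and 11.31 CPM in vostok replicates 1 to 4, against 4.61, 10.22, 5.20 and 8.66 CPM in control replicates 1 to 4. All vostok levels were above all control levels (log2 fold change 0.76 ± 0.25, edgeR adjusted p = 0.0559). DESeq2 and limma voom called both Oamb and TyrR higher.

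Octbeta3R, a cAMP-raising octopamine receptor, had 21.35, 22.45, 23.08 and 24.06 CPM in vostok replicates 1 to 4, against 8.56, 20.98, 9.47 and 17.02 CPM in control replicates 1 to 4. Its groups were separated by the gap of 21.35 against 20.98 CPM (log2 fold change 0.70 ± 0.28, edgeR adjusted p = 0.0912). DESeq2 called it higher (DESeq2 adjusted p = 0.0412), and limma voom did not. Octbeta3R overlaps the neuropeptide gene Hug and lncRNA:CR46016. Octbeta1R, another cAMP-raising receptor, had 49.00, 55.36, 62.87 and 59.38 CPM in vostok replicates 1 to 4, against 24.55, 58.04, 24.48 and 40.25 CPM in control replicates 1 to 4. Control replicate 2 lay inside the vostok range (log2 fold change 0.62 ± 0.28, edgeR adjusted p = 0.120). Octbeta2R, the neighbour of Octbeta3R on chromosome 3R, ran from 15.76 to 22.37 CPM in vostok libraries and from 7.77 to 19.30 CPM in control libraries (log2 fold change 0.63 ± 0.27, edgeR adjusted p = 0.112). Octalpha2R, of the alpha-adrenergic-like class, ran from 34.04 to 52.26 CPM in vostok libraries and from 15.05 to 40.44 CPM in control libraries (log2 fold change 0.71 ± 0.32, edgeR adjusted p = 0.124).

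Of the muscarinic acetylcholine receptors mAChR-A, which acts through phospholipase C, had 74.05, 72.51, 86.59 and 87.59 CPM in vostok replicates 1 to 4, against 34.81, 82.89, 41.31 and 60.73 CPM in control replicates 1 to 4. Control replicate 2 again lay among the vostok libraries (log2 fold change 0.55 ± 0.26, edgeR adjusted p = 0.134). mAChR-B, which lowers cAMP, ran from 12.996 to 15.645 CPM in vostok libraries and from 5.58 to 13.53 CPM in control libraries (log2 fold change 0.68 ± 0.27, edgeR adjusted p = 0.0931), and DESeq2 called it higher. mAChR-C did not pass the filter on low counts: it had 1, 2, 8 and 0 counts in vostok replicates 1 to 4, against 1, 0, 8 and 5 counts in control replicates 1 to 4. That is 11 counts in vostok and 14 in control libraries, with no difference detectable at this depth. DESeq2, run without that filter, gave a log2 fold change of -0.41 (adjusted p = 0.849).

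The 5 remaining receptors had a median log2 fold change of 0.39, the lowest of the receptor groups. None had an unadjusted p below 0.05 (45.2% of all tested genes), and DESeq2 called none (34.4%). GABA-B-R2, an obligate partner of GABA-B-R1 in the working GABA-B receptor, had 156.57, 166.39, 170.24 and 170.07 CPM in vostok replicates 1 to 4, against 90.70, 202.00, 103.09 and 149.84 CPM in control replicates 1 to 4. Control replicate 2 was above every vostok library (log2 fold change 0.28 ± 0.23, edgeR adjusted p = 0.364). GABA-B-R1 ran from 40.19 to 47.92 CPM in vostok libraries and from 21.15 to 48.27 CPM in control libraries (log2 fold change 0.42 ± 0.25, edgeR adjusted p = 0.218). The related GABA-B-R3 ran from 50.30 to 53.94 CPM in vostok libraries and from 17.04 to 52.96 CPM in control libraries (log2 fold change 0.69 ± 0.32, edgeR adjusted p = 0.134). mGluR, the metabotropic glutamate receptor, ran from 56.94 to 64.68 CPM in vostok libraries and from 29.79 to 68.43 CPM in control libraries (log2 fold change 0.39 ± 0.26, edgeR adjusted p = 0.253). AdoR, the adenosine receptor, ran from 2.92 to 3.58 CPM in vostok libraries and from 2.09 to 3.79 CPM in control libraries (log2 fold change -0.00 ± 0.21, edgeR adjusted p = 0.994).

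**Figure D4:**
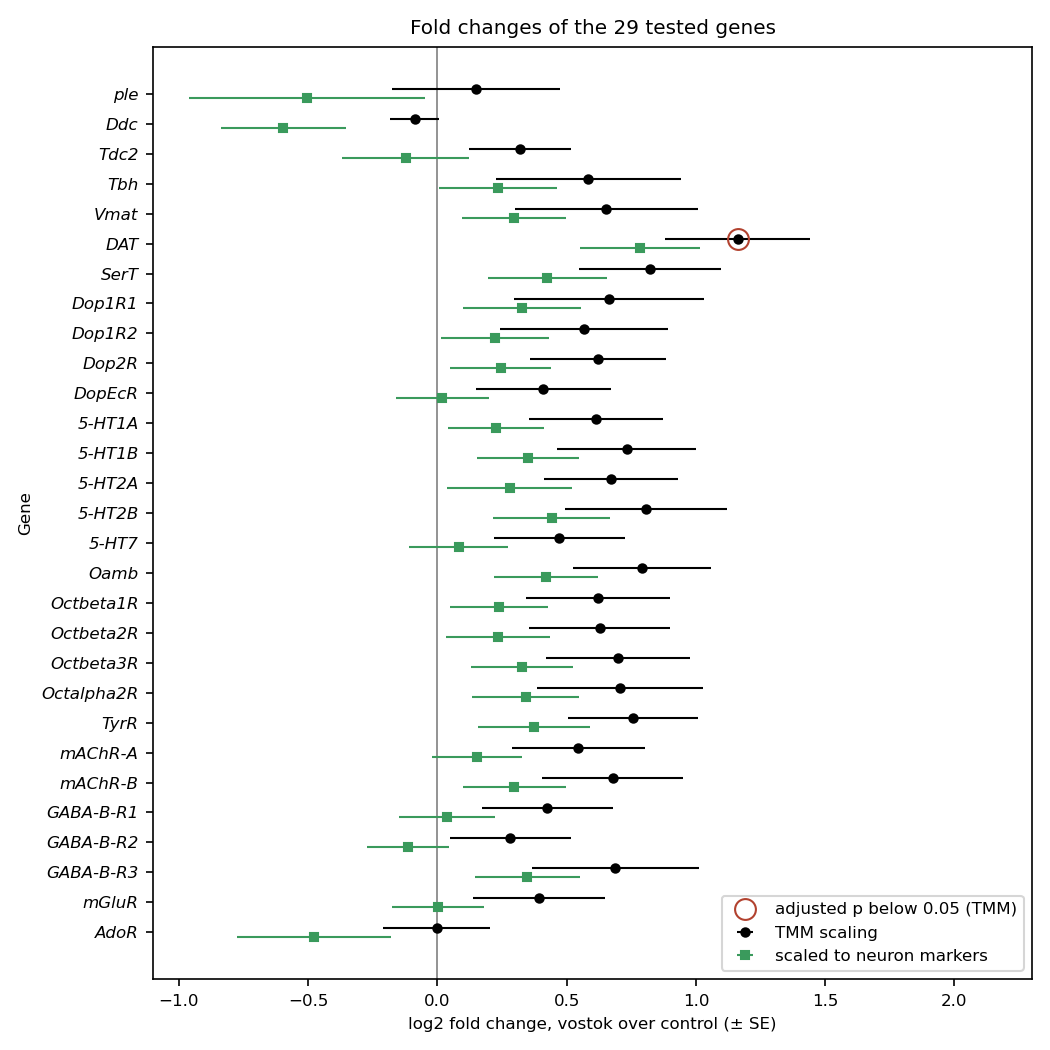
Log2 fold change, vostok over control, of the 29 tested genes with its SE, after TMM scaling and after scaling to the neuron markers, grouped by role. DAT, circled, was the called gene under both scalings, at 1.16 and 0.78, and the median of the 29 was 0.62 and 0.24.

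The controls fell in the same order for most of these genes as for the neuron markers. In 26 of 29 (89.7%) the control order was replicate 2 highest, then replicate 4, then replicates 1 and 3, an order found in 24.1% of all genes with counts in every library. The SD of log2 CPM over the 4 control libraries had a median of 0.593 over the 29 and 0.195 over all genes. When libraries were scaled so that the geometric mean of the 14 neuron markers was equal, that median was 0.142 for the 29 and 0.548 for all genes, and the SD was smaller in 89.7% of the 29 and in 17.4% of all genes. This scaling reports a gene relative to pan-neuronal RNA, and it moved the median log2 fold change of all genes to -0.54 and called 480 higher and 1171 lower.

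On that scale 24 of 29 had a log2 fold change above 0, with a median of 0.24, and ple (-0.51), Tdc2 (-0.12) and GABA-B-R2 (-0.11) were now below 0. On it 1 was called, where 4.47% of all tested genes were called higher and 10.9% lower. That gene was DAT, with 9.98, 10.76, 9.36 and 8.77 scaled CPM in vostok replicates 1 to 4, against 4.68, 5.43, 5.75 and 6.69 scaled CPM in control replicates 1 to 4. The control libraries no longer fell into pairs and the groups did not overlap (log2 fold change 0.78 ± 0.23, edgeR adjusted p = 0.0430). Relative to the neuron markers 12 of 29 had separate groups with vostok higher (6.92% of all tested genes), and these held the 7 named before and also Dop2R, 5-HT1A, 5-HT1B, mAChR-A and mAChR-B. Ddc had separate groups with vostok lower (10% of all tested genes), at 36.33, 34.32, 33.01 and 32.22 scaled CPM in vostok replicates 1 to 4, against 72.48, 39.99, 54.09 and 38.84 scaled CPM in control replicates 1 to 4. It was not called (log2 fold change -0.60, edgeR adjusted p = 0.0866), and control replicates 1 and 3 were its highest libraries. Those 2 had the smallest neuron marker factors, 0.593 and 0.678, which by construction give a high scaled level to a gene whose CPM does not vary with the neuron markers. In CPM Ddc was at 42.61, 50.33, 37.33 and 39.67 in control replicates 1 to 4, where the hemocyte markers were at 2065, 359, 6182 and 1837 CPM. A relation between them was not tested.

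A further 70 genes act beside the 30, in the supply of amines and downstream of the receptors. Of the 69 that were tested 14 were called (20.3%, against 28.3% of all tested genes), 9 higher and 5 lower. Of 14 other genes of amine metabolism 1 was called higher and 2 lower (21.4%), with a median log2 fold change of -0.13. Sptr, a reductase in the making of the hydroxylase cofactor tetrahydrobiopterin, was lower, at 15.2 CPM in vostok libraries and 23.2 CPM in control libraries (mean, n = 4 each; log2 fold change -0.62 ± 0.13, edgeR adjusted p = 0.0119). Pcd, a dehydratase that recycles this cofactor, was lower as well, at 25.3 CPM in vostok libraries and 36.4 CPM in control libraries (log2 fold change -0.53 ± 0.13, edgeR adjusted p = 0.0207), a call lost without vostok replicate 2, 3 or 4 or control replicate 3 (edgeR adjusted p from 0.0507 to 0.0600). The aspartate decarboxylase b, which makes beta-alanine, was higher at 1.38 CPM in vostok libraries and 0.526 CPM in control libraries (log2 fold change 1.39 ± 0.39, edgeR adjusted p = 0.0329), a call lost without vostok replicate 1, 2 or 3 or control replicate 1 or 3 (edgeR adjusted p from 0.0550 to 0.0854).

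Of the 3 further receptors of these classes none was called by edgeR (28.3% of all tested genes). Among them 1 had an unadjusted p below 0.05 (45.2%), and DESeq2 (34.4%) and limma voom (26.5%) called 0. mtt, a metabotropic glutamate receptor relative, averaged 62.8 CPM in vostok libraries and 38.3 CPM in control libraries (log2 fold change 0.71 ± 0.35, edgeR adjusted p = 0.143). Of 8 presynaptic genes of fast transmitters 1 was called (12.5%), higher: Ace, the acetylcholinesterase, averaged 405 ± 27.9 CPM in vostok libraries and 219 ± 58.3 CPM in control libraries (SD, n = 4 each; log2 fold change 0.89 ± 0.19, edgeR adjusted p = 0.0144). Relative to the neuron markers Ace was not called (edgeR adjusted p = 0.0954).

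Of 10 tested G protein subunits 1 was called higher (10%), Ggamma30A, a gamma subunit first known from the eye, at 621 CPM in vostok libraries and 465 CPM in control libraries (log2 fold change 0.42 ± 0.13, edgeR adjusted p = 0.0456). Leaving out any library but control replicate 2 lost the call (edgeR adjusted p from 0.0667 to 0.119), and relative to the neuron markers the log2 fold change was -0.044. Of 17 genes of the cAMP pathway 3 were called higher and 1 lower (23.5%). The regulatory subunit Pka-R1 averaged 191 CPM in vostok libraries and 145 CPM in control libraries (log2 fold change 0.40 ± 0.07, edgeR adjusted p = 0.00795), and -0.10 relative to the neuron markers. The phosphodiesterase Pde8, which degrades cyclic nucleotides, was lower at 41.7 CPM in vostok libraries and 63.9 CPM in control libraries (log2 fold change -0.62 ± 0.13, edgeR adjusted p = 0.0121), and its groups did not overlap. Pka-C2, a little expressed catalytic subunit, had 18, 37, 24 and 33 counts in vostok replicates 1 to 4, against 5, 4, 4 and 2 counts in control replicates 1 to 4 (log2 fold change 2.92 ± 0.35, edgeR adjusted p = 0.00102).

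Of 9 genes of the phospholipase C pathway 2 were called higher and 1 lower (33.3%). The eye protein kinase C inaC was lower, at 1.69 ± 1.12 CPM in vostok libraries and 9.96 ± 2.92 CPM in control libraries (SD, n = 4 each; log2 fold change -2.56 ± 0.51, edgeR adjusted p = 0.0106). Pkcdelta was higher, at 1.46 CPM in vostok libraries and 0.607 CPM in control libraries (log2 fold change 1.26 ± 0.28, edgeR adjusted p = 0.0147), and the diacylglycerol kinase rdgA was higher, at 192 CPM in vostok libraries and 112 CPM in control libraries (log2 fold change 0.77 ± 0.23, edgeR adjusted p = 0.0390). The call of rdgA was lost without any 1 of the vostok libraries or control replicate 3 or 4 (edgeR adjusted p from 0.0679 to 0.0994). Relative to the neuron markers neither Pkcdelta (edgeR adjusted p = 0.0669) nor rdgA (0.103) was called. Of 8 regulators of receptors 1 was called higher and 1 lower (25%). The receptor kinase Gprk1 averaged 171 CPM in vostok libraries and 133 CPM in control libraries (log2 fold change 0.37 ± 0.08, edgeR adjusted p = 0.0114), and -0.13 relative to the neuron markers. The RGS protein loco, which speeds the return of G proteins to rest, averaged 74.1 CPM in vostok libraries and 91.2 CPM in control libraries (log2 fold change -0.30 ± 0.08, edgeR adjusted p = 0.0334), with groups that overlapped and a call lost without any 1 library but control replicate 2 (edgeR adjusted p from 0.0514 to 0.0844).

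**Figure D5:**
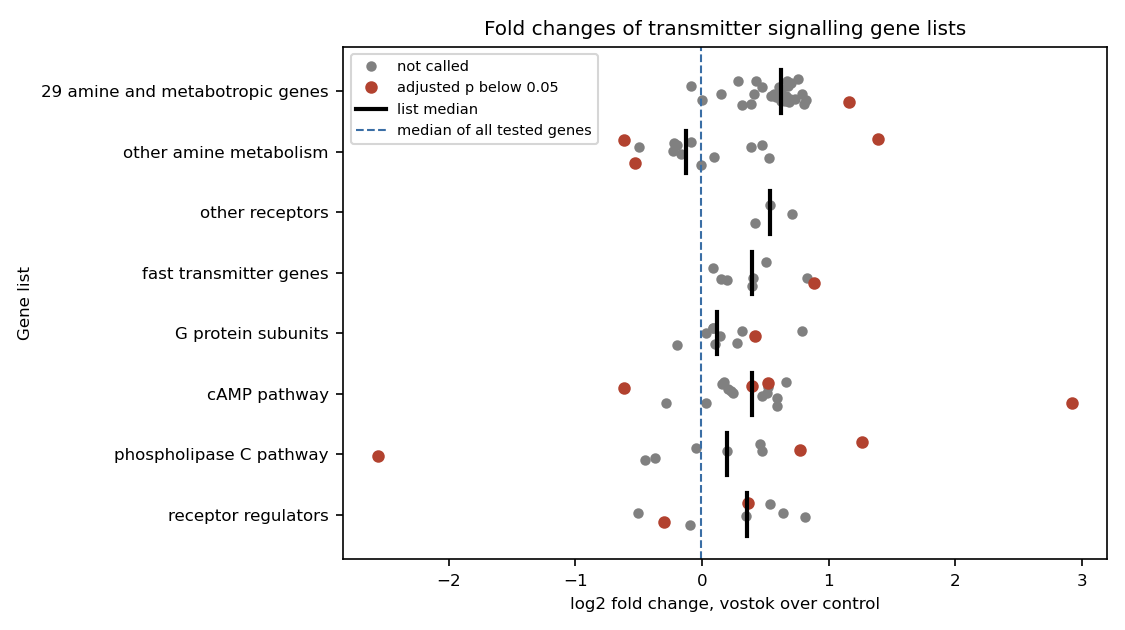
Log2 fold change, vostok over control after TMM scaling, of each tested gene by list, with a bar at the median of the list and called genes in red. The 29 amine and metabotropic genes, drawn together as a list, lay mostly above 0. The other genes of amine metabolism, with a median of -0.13, lay on both sides.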

How the data were processed

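The deposited values are estimated counts for each gene, made by the authors with salmon, per the file name. They are not scaled between libraries. Per the submitters' processing notes BWA and dm6 were used, in no stated role. Not given in the sources used here were the salmon version, the annotation and strand use. Of 24278 entries, the 17895 genes took 99.3% to 99.5% of counts, and the rest stayed out of library sizes and tests. Not analysed here were 2 Micro-C libraries of vostok.

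Estimated counts were rounded, filtered with filterByExpr (10749 genes), scaled by TMM and tested with the robust quasi-likelihood test of edgeR 4.0.16 (R 4.3.3) with a single genotype term. Adjusted p-values are Benjamini-Hochberg over all tested genes at 0.05. The SE comes from the log2 fold change and its F statistic. The script was tested on simulated data. Neuron marker scaling sets the geometric mean of 14 neuron markers equal in all libraries. In every library 3 counts are 0.0371 to 0.0519 CPM, and such a floor covers counting error only, since reads carry no molecular identifiers. Positions are RefSeq Release 6.

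The 30 genes were taken by name, and both they and the lists were chosen with earlier results of these data known. Genes given library by library are those called, those with separate groups, those called without 1 library other than control replicate 2, and the one with most counts in each role. From each further list up to 3 called genes with the smallest p are named, or the most abundant where none was called. Alternatives tried were neuron marker scaling, upper quartile, RLE and library-total scaling, no filter, a stricter filter (5 CPM in 4 libraries), DESeq2 1.42.0, limma 3.58.1 voom (also with quality weights), leaving out each library and a replicate block. Leaving out control replicates 1 and 3 together was added after the data were seen. Figures were drawn with matplotlib 3.10.9.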

Additional observations from a re-analysis of the deposited data

Results flagged for a closer look

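In 90 groups of 4 libraries, over 45 genes, 2 held a library far from the other 3, and chance alone gives about 1 in 20. Tdc2, the neuronal tyrosine decarboxylase, was at 5.21 CPM in vostok replicate 1, while the other vostok libraries were at 6.19 to 6.36 CPM. Pde8, the cyclic nucleotide phosphodiesterase, was at 77.7 CPM in control replicate 3, while the other controls were at 58.03 to 60.31 CPM.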

How the results depend on the processing

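Of 10749 tested genes 3040 were called (1299 higher, 1741 lower). The count was 1651 (480 higher) with neuron marker scaling, 1668 (615 higher, 1053 lower) with a stricter filter, 4619 (2290 higher) with DESeq2, 1564 (804 higher, 760 lower) with a replicate block and 1593 (701 lower) without control replicates 1 and 3 together. Higher calls were 1969 with limma voom with quality weights. Leaving out 1 library gave 1521 to 5333 calls, 779 to 2523 of them higher and 736 to 2810 lower, and the top of each range was without control replicate 2. Of the 29 genes 1 was called, DAT, and 9 with DESeq2, 5 with limma voom, 16 with quality weights, and 0 to 26 without 1 library, all higher, where 17.1%, 13%, 18.3% and 7.16% to 23% of all tested genes were called higher. With the replicate block 1 was called, where 7.48% of all tested genes were called higher. Deviations of same-numbered libraries had correlations of -0.027 to 0.150, and 1 of 8 libraries correlated best with its own number. With 4 libraries in each group this cannot exclude that the numbers pair them. Direction was reversed with neuron marker scaling for ple (-0.51), Tdc2 (-0.12), GABA-B-R2 (-0.11), Pka-R1 (-0.10), Ggamma30A (-0.044), Gprk1 (-0.13) and CG11504 (-0.21), and without control replicates 1 and 3 together for GABA-B-R2 (-0.086) and mGluR (-0.013). AdoR, near 0, was at 0.013 with RLE scaling, 0.017 with upper quartile scaling, 0.011 with library totals, 0.0082 with DESeq2, 0.043 with limma voom, 0.030 with the block, and -0.17 to 0.095 without 1 library. The cause was not tested. Among the 30, mAChR-C alone stayed out of the filtered edgeR test, with 25 counts over all libraries.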
